A study of Mus musculus with 6 samples.

Results

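The expression of Acod1, the enzyme that makes itaconate, and of 8 genes of the tricarboxylic acid (TCA) cycle was examined in M1-polarized and resting mouse macrophage-like cells. The 9 genes (Acod1, Cs, Idh2, Idh3a, Ogdh, Sdha, Sdhb, Fh1 and Mdh2) were chosen by gene symbol, and each had 1 row among the 25124 genes of the deposited TPM table. The cells were RAW264.7, a mouse macrophage line. M1 cells (n = 3 libraries) had received IFN-γ (50 ng/ml) and LPS (100 ng/ml), a bacterial cell wall component sensed by Toll-like receptor 4, and M0 cells (n = 3) had received neither. Both groups were a control line that carried a Cas9 plasmid with no guide RNA, made for comparison with E4BP4 knockout cells, and both grew in medium with 25 mM glucose. The sources used here do not say how long the cells were exposed. All values come from this single line. The labels do not state separate cultures for the replicates, and the spread that the p-values rest on could be technical.

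The TCA cycle oxidises acetyl groups in the mitochondrion. Citrate synthase joins acetyl-CoA to oxaloacetate, citrate is turned into isocitrate by way of cis-aconitate, and successive dehydrogenases return the carbon to oxaloacetate while passing electrons to the respiratory chain. In activated macrophages Acod1 (also called Irg1) removes a carboxyl group from cis-aconitate, which diverts carbon out of the cycle as itaconate. Itaconate is known to inhibit succinate dehydrogenase, and macrophages activated with LPS and IFN-γ are known for an altered cycle in which succinate and citrate collect.

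Libraries held 18666940 to 20283180 reads in genes in M1 and 15615639 to 18110568 in M0. Levels are given in TPM, reads per length of transcript, scaled within each library, and log2 changes come from limma on log2(TPM + 1), M1 minus M0, with Benjamini-Hochberg adjustment over 11297 tested genes. The median log2 change of all tested genes was -0.31 on this scale. A second scale, with each library divided by its median-of-ratios factor, put that median at 0.02, and changes are given on both scales. On the TPM scale 23.3% of calls were higher in M1, against 51.8% after rescaling. All 10 macrophage markers examined passed the filter on low values, although Adgre1, which encodes F4/80, was at 67.6 ± 1.13 TPM in M1 and 2.73 ± 0.505 TPM in M0 (SD, n = 3 each). None of 19 markers of other cell types passed it: their summed level was 1.62 to 2.01 TPM in M1 and 1.64 to 1.97 TPM in M0, the highest value was 0.922 TPM, and 5 of them (Cd3g, Cd8a, Krt8, Krt18 and Mpo) were at 0 in every library. The endothelial marker Pecam1, which macrophages can also express, was at 0.796 ± 0.0294 TPM in M1 and 0.157 ± 0.0561 TPM in M0 (SD, n = 3 each), without overlap. M1 replicate 3 lay further from the other M1 libraries (chi-square per degree of freedom 7.90 and 6.55) than those lay from each other (1.55). The members whose direction or call changed without M1 replicate 3 are named where they occur. Among M0 libraries, replicate 1 likewise lay further from the others (5.73 and 4.19) than those lay from each other (2.18).

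The start regions of the genes differed in base composition. Windows of 300 bases, 250 before and 50 after the annotated start, were found for 8 of the 9 genes (not for Idh3a) in RefSeq, build GRCm38.p6. Shown are those of Acod1 (chr14:103046762-103047061, plus strand), the gene that rose, of Idh2 (chr7:80115301-80115600, minus strand), a cycle gene that fell on both scales, and of Mdh2 (chr5:135778399-135778698, plus strand), the most abundant cycle gene of the 8. They are written 5′ to 3′ on the gene's strand, and capitals mark CG dinucleotides and the letters TATAAA.
Acod1: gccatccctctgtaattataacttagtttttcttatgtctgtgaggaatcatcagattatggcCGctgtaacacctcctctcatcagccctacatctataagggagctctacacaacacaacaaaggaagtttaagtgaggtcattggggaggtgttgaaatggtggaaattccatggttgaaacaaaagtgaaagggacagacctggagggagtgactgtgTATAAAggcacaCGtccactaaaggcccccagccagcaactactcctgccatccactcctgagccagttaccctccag
Idh2: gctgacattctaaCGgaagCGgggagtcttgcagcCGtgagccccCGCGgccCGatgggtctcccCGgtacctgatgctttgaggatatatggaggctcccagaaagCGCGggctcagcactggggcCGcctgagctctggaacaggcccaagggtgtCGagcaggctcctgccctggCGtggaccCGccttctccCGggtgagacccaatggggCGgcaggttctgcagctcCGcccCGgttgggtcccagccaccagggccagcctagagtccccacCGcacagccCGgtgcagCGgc
Mdh2: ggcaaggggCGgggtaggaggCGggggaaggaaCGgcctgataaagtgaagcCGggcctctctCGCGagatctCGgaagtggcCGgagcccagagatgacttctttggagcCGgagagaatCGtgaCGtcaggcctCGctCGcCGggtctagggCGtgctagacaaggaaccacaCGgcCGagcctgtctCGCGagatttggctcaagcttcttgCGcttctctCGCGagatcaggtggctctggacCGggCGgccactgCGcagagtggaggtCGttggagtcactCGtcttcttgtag
The Acod1 window held 2 CG dinucleotides, a GC content of 47.0% and the letters TATAAA on its own strand from -28 to -23, counted back from the start. That position holds for the RefSeq start only: in the GENCODE annotation the matched Acod1 transcript starts at 103046977, upstream of these letters. The windows of Idh2 and Mdh2 held 20 and 27 CG dinucleotides, and those of Cs, Sdha, Sdhb and Fh1 held 18, 25, 15 and 14. Ogdh has 6 annotated starts, whose windows held 11 to 37. TATAAA was found on neither strand in any window of these 7 cycle genes. Among all 32851 windows in the table the median was 7 CG dinucleotides, 23.3% held 2 or fewer, 36.3% held 14 or more, and 13.6% held TATAAA on either strand. TATAAA together with 2 or fewer CG dinucleotides was found in 6.03%. The gamma-activated site TTCNNNGAA, which 8.3% of all windows hold, has no match on either strand in these letters of Acod1. GAGGAA, the core bound by PU.1, which 28.3% of all windows hold on either strand, matched Acod1 at -208 to -203. Further motifs were searched in the same windows. The kappaB motif, which 50.8% of all windows hold, matched Acod1 at -55 to -46. The CCAAT box, which 37.4% hold, matched it at -107 to -103. None of the remaining motifs searched matched the Acod1 window. These matches describe letters in a window and were not tested as binding sites.

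Acod1 (NM_008392, chromosome 14, 103047012 to 103056573, plus strand, mm10) had the largest change of the 9 genes. Its level was 1161, 1191 and 1245 TPM in the 3 M1 libraries, against 1.11, 1.13 and 0.877 TPM in the 3 M0 libraries. Every M1 library was far above every M0 library, and the spread within either group was small beside the gap. The means were 1199 ± 42.3 TPM in M1 and 1.04 ± 0.139 TPM in M0 (SD, n = 3 each), a 1156-fold ratio. The log2 change was 9.20 (SE 0.058, limma adjusted p = 1.8e-16) and 9.47 after rescaling (adjusted p = 4.0e-15). The 1 TPM added before taking logs is close to the M0 level and lowers the change. With 0.1 TPM added it was 10.05 on the TPM scale. By log2 change on the TPM scale Acod1 stood at place 7 of the 11297 tested genes.

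The reads behind these values were 50286, 52880 and 49112 in M1 and 45, 44 and 30 in M0. The exact 95% Poisson intervals of the 3 M0 counts were 32.8 to 60.2, 32.0 to 59.1 and 20.2 to 42.8, and they cover counting error only. The 3 intervals overlap one another. Among all genes of a library ordered by TPM, Acod1 stood at place 46, 42 and 35 in M1 and at place 11013, 11063 and 11325 in M0. It was among the most abundant transcripts in M1 and low in the list in M0. In bulk RNA, a change in the share of cells that express a gene and a change in its RNA per cell cannot be told apart.

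**Figure D1:**
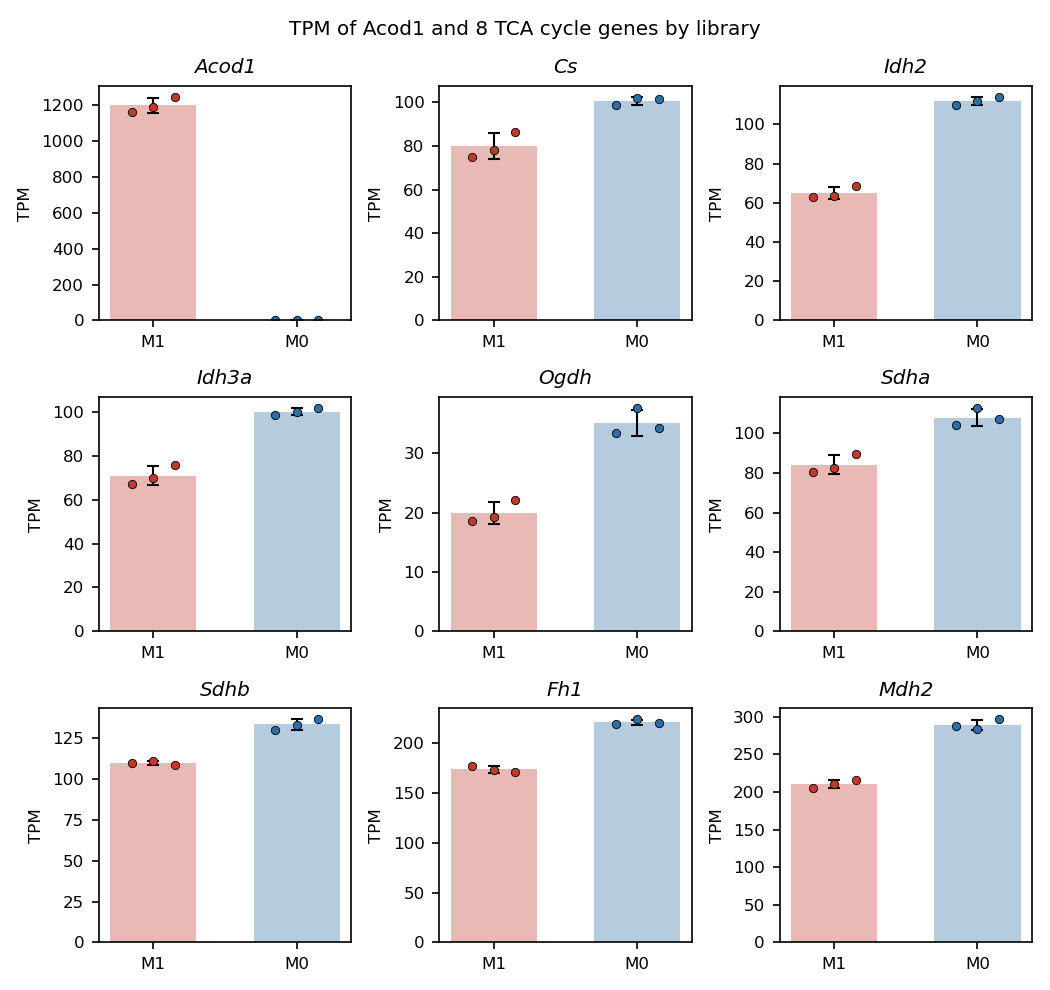
Level in TPM of Acod1 and the 8 cycle genes, with a panel for each gene and its own axis starting at 0. Points are libraries, bars are means and error bars are SD (n = 3 each), M1 in red and M0 in blue. Acod1 is at 1161 to 1245 TPM in M1 and at most 1.13 TPM in M0, and in the other 8 panels every M1 point lies below every M0 point, a difference that held after rescaling for Idh2, Idh3a, Ogdh and Mdh2 only, of which Mdh2 was not called.

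Because Acod1 draws on an intermediate of the cycle, its TPM was set against that of each cycle gene within the same library, a ratio that no scaling of libraries can change. Acod1 was above each of the 8 cycle genes in every M1 library and below each in every M0 library. The ratio was lowest to Mdh2, at 5.65, 5.65 and 5.77 in M1, against 0.00385, 0.00396 and 0.00295 in M0. Acod1 transcripts thus outnumbered, per transcript length, those of the most abundant of the 8 in every M1 library and were far fewer in every M0 library. The mean ratios to Mdh2 were 5.69 ± 0.0663 in M1 and 0.00359 ± 0.000551 in M0 (SD, n = 3 each), a difference of 10.64 on the log2 scale (two-sided exact permutation test p = 0.1, the smallest that 3 against 3 allows). The ratio was highest to Ogdh, with means of 60.3 ± 3.57 in M1 and 0.0296 ± 0.00385 in M0. Each of the 8 ratios gave an exact permutation p = 0.1, and with 15 ratios computed in all, none could pass an adjustment. Out of the summed TPM of Acod1 and 17 cycle genes, Acod1 took 41.5 ± 0.664% in M1 and 0.0485 ± 0.00656% in M0 (SD, n = 3 each).

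**Figure D2:**
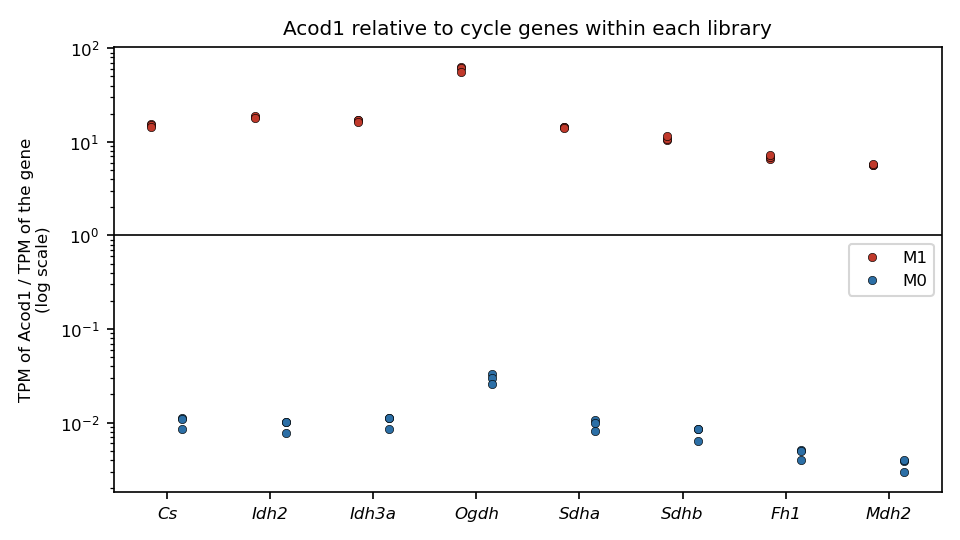
TPM of Acod1 divided by the TPM of each of the 8 cycle genes in the same library, on a log axis, where the line at 1 marks equal levels. Each point is a library, M1 in red and M0 in blue. All M1 points lie above 1, between 5.65 for Mdh2 and 62.7 for Ogdh, and all M0 points lie below 0.1.

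The 8 cycle genes went the other way on the TPM scale. All 8 were called lower, at 56.9% (Ogdh) to 82.4% (Sdhb) of their M0 level, while 61.5% of all tested genes were called lower and 18.7% higher (80.2% in either direction). With Acod1 counted, 1 of the 9 genes was called higher. In all 8 every M1 value lay below every M0 value, as in 61.8% of all tested genes, and in Acod1 every one lay above, as in 19.6%. Their median log2 change was -0.41, against -0.31 over all tested genes. After rescaling 3 of the 8 were called lower (Idh2, Ogdh and Idh3a), none higher and 5 were not called, while 35.4% of all tested genes were lower and 38.1% higher (73.5% in either direction). Their median was then -0.04, against 0.02 over all tested genes. On that scale Idh2, Idh3a, Ogdh and Mdh2 did not overlap between groups with M1 below, as in 36.5% of all tested genes, and Sdhb did not overlap with M1 above, as in 39.2%.

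At the entry of the cycle stands citrate synthase, Cs (NM_026444, chromosome 10, 128337727 to 128362482, plus strand). Its level was 74.8, 78.3 and 86.5 TPM in M1, against 98.8, 101.8 and 101.6 TPM in M0. The highest M1 library stayed under the lowest M0 library. The log2 change was -0.33 (SE 0.055, limma adjusted p = 0.00017), close to the median of all genes, and after rescaling it was 0.03 and not called (adjusted p = 0.63). Without M1 replicate 3 the rescaled change was -0.02, so Cs has no direction that holds across scales.

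Isocitrate is oxidised in the mitochondrion by an NAD-dependent enzyme, of which Idh3a encodes the catalytic subunit, and by the NADP-dependent Idh2. Idh2 (NM_173011, chromosome 7, 80094847 to 80115350, minus strand) fell on both scales. Its level was 63.2, 63.3 and 68.4 TPM in M1, against 109.7, 111.8 and 113.9 TPM in M0. The groups lay well apart, with means of 65.0 ± 3.0 TPM in M1 and 112 ± 2.12 TPM in M0 (SD, n = 3 each). The log2 change was -0.77 (SE 0.047, limma adjusted p = 3.8e-08), and -0.41 after rescaling (adjusted p = 8.2e-06). The ratio of Idh2 to Cs, free of any library scaling, was 0.814 ± 0.0272 in M1 and 1.11 ± 0.0115 in M0, with no overlap (exact permutation p = 0.1). Idh2 was below Cs in all 3 M1 libraries and above it in all 3 M0 libraries.

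Idh3a (NM_029573, chromosome 9, 54586511 to 54604662, plus strand) was lower too. Its level was 67.1, 69.9 and 75.7 TPM in M1, against 98.5, 99.8 and 101.6 TPM in M0, again without overlap. The log2 change was -0.49 (SE 0.051, limma adjusted p = 3.8e-06). After rescaling it was -0.13 (adjusted p = 0.026), but that call was lost without M1 replicate 1, M1 replicate 2, M0 replicate 1 or M0 replicate 3, at adjusted p = 0.11, 0.078, 0.052 and 0.079. The regulatory subunits Idh3b and Idh3g were lower on the TPM scale only (log2 changes -0.30 and -0.26), and after rescaling they were at 0.06 and 0.10 and not called.

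Ogdh (NM_010956, chromosome 11, 6291597 to 6359094, plus strand) encodes the E1 subunit of the 2-oxoglutarate dehydrogenase complex, which commits 2-oxoglutarate to succinyl-CoA. It was the least abundant of the 8 cycle genes and the one with the lowest log2 change. Its level was 18.5, 19.2 and 22.1 TPM in M1, against 33.3, 37.6 and 34.3 TPM in M0. The highest M1 library was far under the lowest M0 library. The means were 19.9 ± 1.92 TPM in M1 and 35.1 ± 2.23 TPM in M0 (SD, n = 3 each), and the log2 change was -0.79 (SE 0.073, limma adjusted p = 1.3e-06), or -0.44 after rescaling (adjusted p = 0.00014). Within the 11297 tested genes 18.8% had a lower log2 change than Ogdh and 19.4% a lower one than Idh2, so neither was among the extreme decreases.

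The partner subunits of the same complex were compared with it. Dld, the E3 subunit, which is shared with the pyruvate and branched-chain dehydrogenase complexes, was at 175.9, 166.6 and 168.9 TPM in M1, against 133.7, 142.5 and 140.4 TPM in M0. It was the only one of the 17 cycle genes examined that was called higher on the TPM scale, where its log2 change was 0.29 (SE 0.045, limma adjusted p = 8.8e-05) and 0.66 after rescaling (adjusted p = 3.1e-07). The E2 subunit Dlst was at 88.0, 89.6 and 94.0 TPM in M1, against 106.1, 108.1 and 106.9 TPM in M0, a log2 change of -0.24. Its direction depended on the scale: after rescaling it was 0.12 and called higher (adjusted p = 0.018), a call lost without M1 replicate 2, M0 replicate 2 or M0 replicate 3 (adjusted p = 0.056, 0.052 and 0.057). Within libraries the ratio of Ogdh to Dld was 0.117 ± 0.0130 in M1 and 0.252 ± 0.0101 in M0, and that of Ogdh to Dlst was 0.220 ± 0.0136 in M1 and 0.328 ± 0.0178 in M0 (SD, n = 3 each, exact permutation p = 0.1 for each). The E1 subunit was thus lower relative to both partners in every M1 library than in any M0 library.

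Succinate dehydrogenase, the enzyme that itaconate inhibits, has the catalytic flavoprotein Sdha and the iron-sulfur subunit Sdhb, held in the membrane by Sdhc and Sdhd. Sdha (NM_023281, chromosome 13, 74322255 to 74350240, minus strand) was at 80.5, 82.6 and 89.5 TPM in M1, against 104.0, 112.7 and 107.0 TPM in M0. Sdhb (NM_023374, chromosome 4, 140961271 to 140979198, plus strand) was at 109.7, 110.9 and 108.8 TPM in M1, against 130.2, 133.3 and 136.6 TPM in M0. Both were lower in every M1 library on the TPM scale, with log2 changes of -0.36 and -0.28 (limma adjusted p = 7.1e-05 and 7.7e-05), near the median of all genes. After rescaling Sdha was at 0.01 (adjusted p = 0.92) with overlapping groups, and at -0.03 without M1 replicate 3, and Sdhb at 0.08 (adjusted p = 0.087). Sdhb was called higher after rescaling when M1 replicate 3 was left out (log2 change 0.10, adjusted p = 0.041). The ratio of Sdha to Sdhb was 0.767 ± 0.0486 in M1 and 0.809 ± 0.0323 in M0 (SD, n = 3 each), with overlapping groups (exact permutation p = 0.3).

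The membrane subunit Sdhd was at 135.7, 132.9 and 121.2 TPM in M1, against 199.8, 194.3 and 193.2 TPM in M0. It fell on both scales, with log2 changes of -0.59 (SE 0.050, limma adjusted p = 6.7e-07) and -0.23 after rescaling (adjusted p = 0.0051). Sdhc was at 130 ± 1.02 TPM in M1 and 174 ± 2.91 TPM in M0 (SD, n = 3 each), a log2 change of -0.42 that was -0.05 and not called after rescaling.

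Fumarate hydratase, Fh1 (NM_010209, chromosome 1, 175601378 to 175625635, minus strand), was at 177.0, 172.8 and 170.8 TPM in M1, against 219.0, 224.0 and 219.7 TPM in M0. The groups did not overlap on the TPM scale. The log2 change was -0.35 (SE 0.041, limma adjusted p = 1.0e-05), but 0.02 after rescaling and not called (adjusted p = 0.74). Mdh2 (NM_008617, chromosome 5, 135778649 to 135790386, plus strand), the mitochondrial malate dehydrogenase that regenerates oxaloacetate, was at 205.5, 210.6 and 215.8 TPM in M1, against 287.6, 284.4 and 296.9 TPM in M0. It was the most abundant of the 8 in every library and lower in every M1 library. Its log2 change was -0.46 (SE 0.043, limma adjusted p = 1.5e-06), and -0.09 after rescaling, where it was not called (adjusted p = 0.071).

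Summed, the 8 cycle genes were at 814 ± 21.4 TPM in M1 and 1099 ± 16.1 TPM in M0 (SD, n = 3 each), a difference of -286 TPM (exact permutation p = 0.1). On the rescaled TPM the sums were 920 ± 11.1 in M1 and 965 ± 7.44 in M0, a difference of -45.2 (exact permutation p = 0.1), or -0.07 on the log2 scale. The direction was the same on both scales, and the difference was smaller after rescaling. Over all 17 cycle genes examined the rescaled sums were 1910 ± 11.5 in M1 and 1874 ± 18.6 in M0, so the sign turned, against 1690 ± 18 TPM in M1 and 2135 ± 13.5 TPM in M0 before rescaling. Among M1 libraries, replicate 3 had the highest TPM of Cs, Idh2, Idh3a, Ogdh, Sdha and Mdh2 and the lowest of Sdhb and Fh1. Without it, 8 of the 8 were still called lower on the TPM scale and 3 after rescaling.

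**Figure D3:**
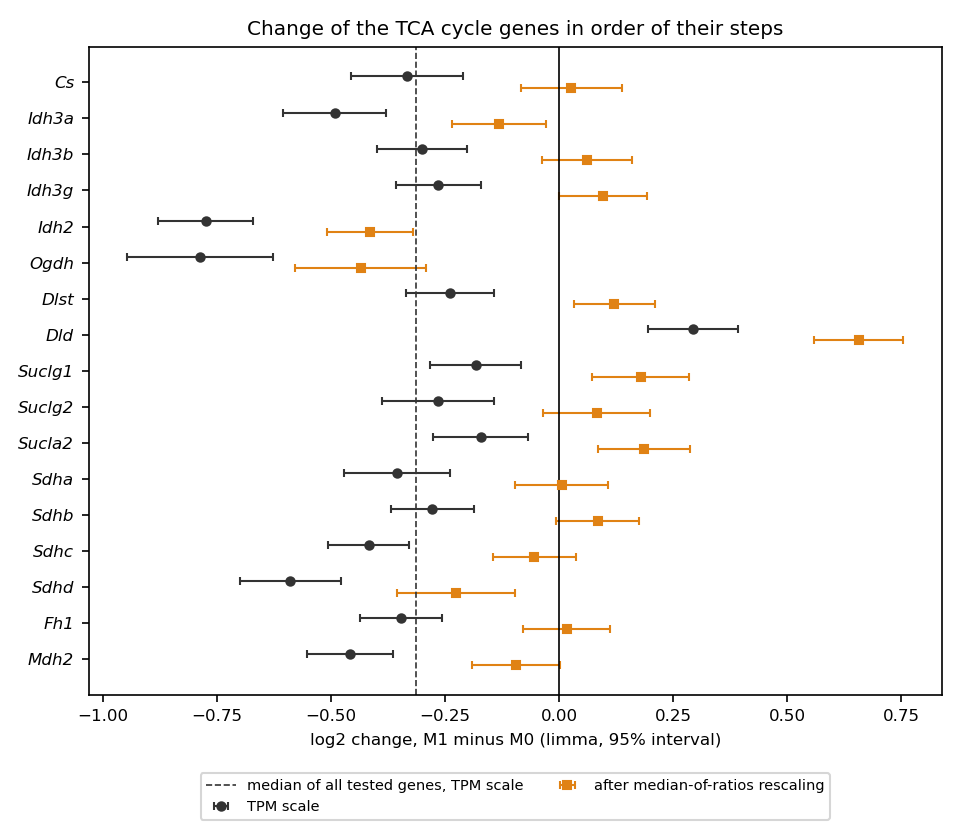
Log2 change, M1 minus M0, of 17 genes of the TCA cycle in the order of their steps, on the TPM scale (black circles) and after median-of-ratios rescaling (orange squares), with 95% intervals from limma. The dashed line is the median of all 11297 tested genes on the TPM scale, -0.31. The intervals of Idh2, Idh3a, Ogdh and Sdhd lie below 0 on both scales, and that of Dld lies above 0 on both. Most other genes lie near the dashed line on the TPM scale and near 0 after rescaling.

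Of the 9 cycle genes examined outside the 8, Dld was called higher on the TPM scale and the other 8 lower, and the median log2 change was -0.26, and 0.10 after rescaling. After rescaling 4 were higher (Dld, Dlst, Suclg1 and Sucla2), 1 lower (Sdhd) and 4 not called (Idh3b, Idh3g, Suclg2 and Sdhc). Over all tested genes 18.7% were higher and 61.5% lower on the TPM scale, and 38.1% and 35.4% after rescaling. The succinyl-CoA ligase subunits, which make succinate, had small changes whose sign depended on the scale. Suclg1, the alpha subunit, had -0.18 on the TPM scale and 0.18 after rescaling. Sucla2 and Suclg2, the beta subunits of the ATP-forming and GTP-forming enzymes, had -0.17 and -0.27 on the TPM scale and 0.19 and 0.08 after rescaling.

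The cytosolic counterparts of the cycle, the export of citrate and the malic enzymes were examined next. Among the malic enzymes Me2 and Me3 are mitochondrial, and Me2 is counted among the lower genes on both scales. Of 8 tested genes, 6 were lower and none higher on the TPM scale, against 6 lower and 2 higher after rescaling, and their median log2 change was -0.65, and -0.31 after rescaling. Of all tested genes 61.5% were lower and 18.7% higher on the TPM scale, and 35.4% lower and 38.1% higher after rescaling. Idh1, the cytosolic NADP-dependent isocitrate dehydrogenase, was at 40.9, 40.1 and 42.6 TPM in M1, against 115.9, 123.6 and 119.0 TPM in M0. It fell on both scales, with log2 changes of -1.51 (SE 0.047, limma adjusted p = 1.2e-10) and -1.15 after rescaling. The ratio of Idh1 to Idh2 was 0.634 ± 0.0120 in M1 and 1.07 ± 0.0322 in M0 (SD, n = 3 each), with no overlap (exact permutation p = 0.1). The citrate carrier Slc25a1 was at 41.2 ± 1.58 TPM in M1 and 74.8 ± 4.78 TPM in M0. Acly, which splits exported citrate into acetyl-CoA and oxaloacetate, was at 69.5 ± 5.30 TPM in M1 and 124 ± 6.46 TPM in M0. Both fell, with log2 changes of -0.84 and -0.83, and -0.49 and -0.47 after rescaling. Ireb2, an iron-regulatory protein, was not called at 28.3 ± 1.15 TPM in M1 and 30.3 ± 1.51 TPM in M0, and after rescaling it was called higher with the opposite sign (0.26). Me3 was at 0.027 TPM or less in every library and was not tested.

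Pyruvate reaches the cycle through the mitochondrial pyruvate carrier and the pyruvate dehydrogenase complex. Of 13 tested genes 2 rose and 9 fell on the TPM scale, against 5 and 5 after rescaling, and their median log2 change was -0.37, and -0.01 after rescaling. These counts lie near the shares of all tested genes, 18.7% higher and 61.5% lower on the TPM scale and 38.1% and 35.4% after rescaling. Pdk1, a kinase that switches the complex off, was at 7.38, 7.24 and 8.12 TPM in M1, against 33.6, 34.9 and 34.8 TPM in M0. Its log2 change of -2.05 (SE 0.060, limma adjusted p = 6.8e-11) was -1.71 after rescaling. Pdk2, another such kinase, fell as well, but it was at 0.581 TPM or less in M1 and at most 1.78 TPM in M0. Pdpr, the regulatory subunit of the opposing phosphatase, also fell (log2 change -1.0), and so did the catalytic subunit Pdp2, at 4.59 ± 0.513 TPM in M1 and 8.82 ± 0.506 TPM in M0 (log2 change -0.82, and -0.50 after rescaling). The other catalytic subunit, Pdp1, rose, at 6.49 ± 0.511 TPM in M1 and 3.26 ± 0.344 TPM in M0 (log2 change 0.81, limma adjusted p = 3.5e-06). The kinase Pdk3 was at 31.0 ± 0.511 TPM in M1 and 27.3 ± 2.41 TPM in M0 (log2 change 0.18, limma adjusted p = 0.023), a call lost without M1 replicate 2 or M0 replicate 1. Mpc1, a subunit of the carrier, was not called at 18.8 ± 0.995 TPM in M1 and 18.1 ± 0.580 TPM in M0, and it was called higher after rescaling (0.40).

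Glutamine enters at 2-oxoglutarate. Of 9 tested genes of glutamine and GABA entry none rose and 8 fell on the TPM scale, against 1 and 6 after rescaling, with medians of -0.54 and -0.26, where 18.7% of all tested genes rose and 61.5% fell on the TPM scale, and 38.1% and 35.4% after rescaling. Glud1, glutamate dehydrogenase, which makes 2-oxoglutarate from glutamate, was at 64.6, 67.4 and 73.6 TPM in M1, against 100.4, 109.1 and 108.8 TPM in M0. It fell on both scales, with log2 changes of -0.62 (SE 0.057, limma adjusted p = 1.3e-06) and -0.26 after rescaling. D2hgdh, which returns the D form of 2-hydroxyglutarate to 2-oxoglutarate, fell by 0.68 on the log2 scale, and by 0.42 after rescaling. Gpt, an alanine transaminase, fell by 0.89, at 1.92 ± 0.0646 TPM in M1 and 4.41 ± 0.416 TPM in M0. Gpt2, its mitochondrial form, was not called, at 8.73 ± 0.125 TPM in M1 and 8.95 ± 0.469 TPM in M0, and after rescaling it was called higher with the opposite sign (0.30). Gad1, which makes GABA, was at 0 in all 6 libraries, and Abat, which breaks it down, at 0.080 TPM or less.

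The aspartate-argininosuccinate shunt returns carbon to the cycle as fumarate. The list examined held Ass1 and Asl of the shunt, genes of adenylosuccinate enzymes, and Gpt2, which is also counted under glutamine entry. Of these 6 tested genes 1 rose and 4 fell on the TPM scale, with a median of -0.38. After rescaling 2 rose (Ass1 and Gpt2) and 1 fell, with a median of -0.03. The TPM counts lie near the shares of all tested genes (18.7% higher, 61.5% lower), which were 38.1% and 35.4% after rescaling. Ass1, which joins citrulline to aspartate, was at 63.6, 67.7 and 71.0 TPM in M1, against 22.9, 24.7 and 23.4 TPM in M0. It rose on both scales (log2 change 1.47, SE 0.055, limma adjusted p = 6.1e-10, and 1.83 after rescaling). Asl, which releases fumarate from argininosuccinate, was at 38.0 ± 1.35 TPM in M1 and 51.5 ± 1.03 TPM in M0, a log2 change of -0.43 that was -0.07 and not called after rescaling. Of the adenylosuccinate synthases, Adssl1 fell on both scales (-1.23, and -0.88 after rescaling), and Adss was lower on the TPM scale only (-0.44, and -0.07 after rescaling).

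Of 5 carriers of dicarboxylates, aspartate and glutamate across the inner mitochondrial membrane, 2 rose and 3 fell on both scales, with a median log2 change of -0.66, and -0.30 after rescaling. With so few genes these counts are not set apart from the 18.7% higher and 61.5% lower of all tested genes, or 38.1% and 35.4% after rescaling. Slc25a22, a glutamate carrier, was at 29.6, 29.6 and 31.5 TPM in M1, against 13.7, 14.3 and 15.3 TPM in M0 (log2 change 1.02, SE 0.059, limma adjusted p = 2.3e-08). Slc25a12, an aspartate-glutamate carrier, was at 28.3 ± 1.31 TPM in M1 and 25.0 ± 1.92 TPM in M0 (log2 change 0.17, limma adjusted p = 0.028), a call lost without M1 replicate 3 or M0 replicate 1 on the TPM scale. The dicarboxylate carrier Slc25a10, the 2-oxoglutarate carrier Slc25a11 and the second aspartate-glutamate carrier Slc25a13 fell by 0.87, 0.66 and 0.94 on the log2 scale, and by 0.52, 0.30 and 0.58 after rescaling. Among the 4 assembly factors of succinate dehydrogenase none rose and 2 fell on the TPM scale, against 1 and 2 after rescaling, with a median log2 change of -0.53, and -0.18 after rescaling, again beside 61.5% lower of all tested genes on the TPM scale and 35.4% after rescaling. Sdhaf1 and Sdhaf4 were the ones that fell, by 0.58 and 0.66, and by 0.23 and 0.31 after rescaling. Sdhaf2, needed to attach the flavin to Sdha, was not called at 23.1 ± 1.35 TPM in M1 and 23.9 ± 1.14 TPM in M0, while the rescaled change was positive and called (0.30).

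**Figure D4:**
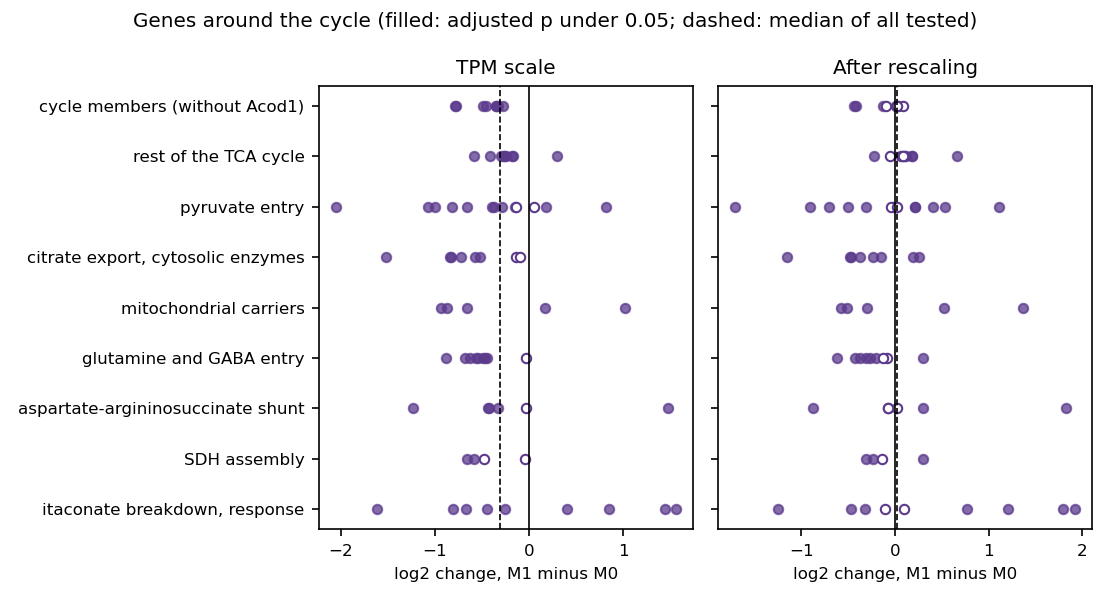
Log2 change, M1 minus M0, of each tested gene in the cycle and in the lists around it, on the TPM scale (left) and after rescaling (right). Filled points had a limma adjusted p under 0.05, and the dashed line is the median of all tested genes, -0.31 on the left and 0.02 on the right. The points of the cycle lie on either side of the dashed line, from -0.79 (Ogdh) to 0.29 (Dld) on the TPM scale. Among the genes of the lists around the cycle Pdk1 lies at -2.05 and Atf3 at 1.56.

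Genes that break itaconate down, or that are known to respond to it, moved in both directions: 4 of 9 tested rose and 5 fell on the TPM scale, against 4 and 3 after rescaling, with medians of -0.26 and 0.09. Of all tested genes 18.7% rose and 61.5% fell on the TPM scale, and after rescaling 38.1% and 35.4%, near the counts of this list. Atf3, a stress transcription factor induced by itaconate derivatives in mouse macrophages, was at 531 ± 3.28 TPM in M1 and 180 ± 6.49 TPM in M0 (log2 change 1.56). Rab32, a GTPase known to bring itaconate to vacuoles that hold Salmonella, was at 48.2 ± 1.01 TPM in M1 and 17.1 ± 1.43 TPM in M0 (log2 change 1.45). Both rose on both scales, as did Keap1, whose protein itaconate alkylates, at 65.9 ± 0.625 TPM in M1 and 36.2 ± 1.09 TPM in M0. Nfe2l2, which encodes the Keap1 partner Nrf2, also rose on both scales (log2 change 0.41, and 0.77 after rescaling). Hmox1, a target of Nrf2, was at 34.3, 37.9 and 39.3 TPM in M1, against 118.1, 116.7 and 110.6 TPM in M0. It fell on both scales, with log2 changes of -1.61 (SE 0.057, limma adjusted p = 3.5e-10) and -1.25 after rescaling. Auh, a mitochondrial enoyl-CoA hydratase, and Mmut, methylmalonyl-CoA mutase, fell by 0.81 and 0.67, and by 0.47 and 0.32 after rescaling. Clybl, the citramalyl-CoA lyase of itaconate breakdown, was lower on the TPM scale only (log2 change -0.45), and after rescaling it was at -0.11 and not called. Of the receptors, Sucnr1 for succinate was at 0 in every library and Oxgr1, a receptor for itaconate in mice, at 0.017 TPM or less. Sugct, which can attach coenzyme A to itaconate, was at 0.270 TPM or less and was not tested.

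Of 8 tested factors and receptors that lie upstream of Acod1, 6 rose and 2 fell on both scales, with a median log2 change of 0.86, and 1.22 after rescaling. The shares of all tested genes were 18.7% higher and 61.5% lower on the TPM scale, and 38.1% and 35.4% after rescaling. Irf1, an interferon-induced transcription factor known to act on Acod1, was at 483, 475 and 476 TPM in M1, against 21.2, 19.9 and 20.5 TPM in M0 (log2 change 4.47, SE 0.043, limma adjusted p = 6.4e-15). Nfkb1, which encodes a subunit of NF-κB, was at 255 ± 19.2 TPM in M1 and 63.0 ± 4.37 TPM in M0, and Irf8, a transcription factor of the macrophage lineage, at 325 ± 19.8 TPM in M1 and 115 ± 4.67 TPM in M0 (SD, n = 3 each). Their log2 changes were 2.0 and 1.49. The 2 that fell were Tlr4, the receptor for LPS, at 7.18 ± 0.425 TPM in M1 and 26.6 ± 1.68 TPM in M0, and Ifngr1, a subunit of the IFN-γ receptor, at 11.6 ± 0.121 TPM in M1 and 24.2 ± 0.378 TPM in M0. They fell by 1.75 and 1.0 on the log2 scale, and by 1.42 and 0.66 after rescaling. The other subunit of the IFN-γ receptor, Ifngr2, was among the 6 that rose (log2 change 0.40, and 0.76 after rescaling).

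The genes whose log2(TPM + 1) lay nearest to that of Acod1 over the 6 libraries, by Euclidean distance, were Gbp2, Rsad2, Serpina3g, Ifit1 and Iigp1, at distances of 1.29, 1.53, 1.71, 1.86 and 2.27. Gbp2, a guanylate-binding protein, was at 1230 ± 20.5 TPM in M1 and 2.40 ± 0.489 TPM in M0, and Rsad2, also called viperin, at 1329 ± 25.7 TPM in M1 and 2.69 ± 0.447 TPM in M0. Each of the 5 was low in M0 and at 625 to 1329 TPM on average in M1. That pattern follows from choosing them by their distance to Acod1. Reads of Gbp2 and Serpina3g can be shared with similar family members, so their own levels are uncertain.

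In the authors' deposited table Acod1 stands under its older symbol Irg1, with a log2 fold change of 10.53. The authors' deposited table lists Idh2, Ogdh and Idh3a as lower (log2 fold changes -0.42, -0.45 and -0.13, adjusted p = 6.2e-13, 5.5e-11 and 0.032). The authors' deposited table gives Cs, Sdha, Sdhb, Fh1 and Mdh2 between -0.10 (Mdh2) and 0.09 (Sdhb), with adjusted p-values of 0.087 or more. Of the genes tested here that it lists, 35.4% were higher and 32.2% lower in the authors' deposited table. For Idh2 the log2 fold change of the authors' deposited table, -0.42, stands beside -0.41 after rescaling and -0.77 on the TPM scale.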

How the data were processed

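RNA of 6 RAW264.7 libraries, 3 M1 and 3 M0, was poly(A)-selected and sequenced, per the labels' protocols. Per the submitters' processing notes the build was mm10 and the tools were STAR 2.7.5a, DESeq2, HOMER 4.11.1 and bcl2fastq, whose roles those notes do not give. The authors deposited TPM per gene for 25124 genes, and a second table of 24421 genes whose columns are, per the file headers, log2 values (transform not stated), log2 fold changes and p-values of M1 over M0, a direction that held for 100% of 5114 genes checked. TPM times transcript length came out within 0.1 of whole reads for 99.8% to 99.99% of values above 0, which gave the reads and the depths of 15615639 to 20283180 reads in genes, 83.5% to 86.7% of the totals that the headers give. No replicate pair agreed within sampling noise (chi-square 1.55 to 7.90 per degree of freedom), and each library counted once.

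Genes that reached 1 TPM in 3 libraries (11297) were fitted on log2(TPM + 1) with limma 3.58.1 (R 4.3.3, trend and robust empirical Bayes, group as the only term) and called at a Benjamini-Hochberg adjusted p under 0.05. The added 1 TPM understates changes of low genes. The second scale divides TPM by median-of-ratios factors over genes above 0 in every library. Ratios and sums had two-sided exact permutation tests. The procedure was tested on simulated data in which a small share of genes changed, as many up as down. That setting does not cover the shift of the median seen here on the TPM scale. Alternatives were another pseudocount, other filters on low values, rescaling by ribosomal protein genes, plain empirical Bayes, the deposited log2 columns, a replicate block and leaving out each library. Second-table rows were matched by accession, then symbol.

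The members and gene lists were chosen with earlier results of these data known, so their counts are descriptions and are no independent support. Text examples were all members, all cycle genes examined, up to 3 called genes per direction and the most abundant gene not called in each other list, some genes too low to test, and the 5 genes nearest to Acod1. A few genes are not reported here and were left out of the lists and their counts. Adgre1, Ifngr2, Pecam1, Pdp2, Me2, Nfe2l2 and Clybl were singled out after their values were seen. Promoter windows are from RefSeq, GRCm38.p6. The sources used here do not say whether reads were counted by strand. None of the 9 genes overlaps another gene in the table.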

Additional observations from a re-analysis of the deposited data

How the results depend on the processing

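Acod1 was called higher under every alternative, with log2 changes of 9.15 to 10.05. Scaling moved the counts and many calls of other genes. Genes called higher numbered 2111 on the TPM scale, 4305 after median-of-ratios rescaling and 4253 from the authors' log2 columns, and genes called lower 6944, 4002 and 3991. Of the 8 cycle genes, 8, 3 and 3 were called lower. Log2 changes that were negative on the TPM scale turned positive after rescaling and in the log2 columns for Cs (0.027 and 0.022), Sdha (0.0058 and 0.0038), Sdhb (0.084 and 0.085), Fh1 (0.017 and 0.016), Idh3b (0.061 and 0.049), Idh3g (0.096 and 0.090), Dlst (0.12 and 0.12), Suclg1 (0.18 and 0.17), Suclg2 (0.083 and 0.081), Sucla2 (0.19 and 0.19), Gpt2 (0.30 and 0.32), Ireb2 (0.26 and 0.26) and Sdhaf2 (0.30 and 0.31). Both ended the calls of Mdh2, Sdhc, Adss and Asl and brought a call of Mpc1. Rescaling by ribosomal protein genes turned Gpt2 (0.0056) and ended the calls of Suclg1, Sucla2, Slc25a12 and Pdk3. Without a filter, Slc25a12 and Pdk3 were not called.

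Leaving out 1 library from the rescaled fit was added after seeing the data. It turned Cs (-0.019), Sdha (-0.027, -0.0073 and -0.0028) and Fh1 (-0.0046), gave 1 to 2 of the 9 genes higher, with Sdhb as the second without M1 replicate 3, and ended calls of Idh3a and Dlst. Idh3g was called higher without M0 replicate 1 (0.12, adjusted p = 0.034, limma). On the TPM scale, among the members, the cycle genes and the examples taken from the lists by rule, leaving out 1 library changed only calls of Slc25a12 and Pdk3. The cause of these changes was not tested.

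Replicate numbers do not pair the samples: deviations of same-numbered libraries correlated at 0.07, -0.08 and 0.04, and not every library correlated best with its own number. With the replicate number as a block, 2143 genes were higher and 7016 lower, and Acod1 was at 9.20. No call of the members, cycle genes and list examples taken by rule changed on the TPM scale. After rescaling no call of Acod1 and the 17 cycle genes examined changed. Depth limits Acod1 in M0, at 30 to 45 reads, and genes under 1 TPM.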
